A study of Mus musculus with 11 samples.

Results

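The 10 genes described here govern the passage of a cell through G1. They are the D-type cyclins Ccnd1, Ccnd2 and Ccnd3, the E-type cyclins Ccne1 and Ccne2, the kinases Cdk4 and Cdk6, and the cyclin-dependent kinase (CDK) inhibitors Cdkn1a (p21), Cdkn1b (p27) and Cdkn2c (p18). They were taken by gene symbol from the 36529 genes counted in each sample, as a family chosen with earlier results of these data known. The cells were BV2, a transformed line of mouse microglia listed with the strain C57BL/6, so the data describe a single line in culture and not microglia of the brain. In one experiment 3 samples were given the amino-terminal fragment of human apolipoprotein E4 that spans residues 1 to 151 (nApoE4) at 25 μg/ml for 5 h, and 3 untreated samples (ControlA) served as its controls. In the other, 2 samples were given the same residues of apolipoprotein E3 (nApoE3) at the same dose and time, with 3 untreated samples of their own (ControlB). The fragments differ by a single amino acid and carried a His tag. The controls are named in the sources as given either a PBS vehicle or conditioned media, and which of these they received is not known.

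In G1, cyclin D pairs with Cdk4 or Cdk6 and cyclin E pairs with Cdk2, and these kinases phosphorylate the retinoblastoma protein, which releases E2F factors to switch on genes of DNA replication. Cdkn2c belongs to the INK4 inhibitors, which bind Cdk4 and Cdk6 alone, while Cdkn1a and Cdkn1b belong to the Cip/Kip inhibitors, which bind a wider range of cyclin-CDK complexes. Cdkn1a is also the best known target gene of p53, and Ccne1 and Ccne2 are themselves E2F target genes. BV2 cells divide in culture, and exit from the cycle is a known feature of activated macrophages.

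The depth was 39732710 to 44162511 counts on genes per sample in the nApoE4 experiment and 55809688 to 69768666 in the nApoE3 experiment. No replicates of a group differed by less than counting error, and ControlA replicate 2 stood farthest from its own group, with a chi-square per degree of freedom of 25.8 and 47.9 against the other controls, which gave 7.85 against each other. Of 12 microglia and macrophage markers, P2ry12 had 0 counts in every sample and Aif1 had at most 10, while the summed level was 2294 to 2497 CPM (counts scaled to library size) in ControlA, 2706 to 2739 with nApoE4, 1690 to 1764 in ControlB and 1979 to 2018 with nApoE3. The labelled cell type was therefore borne by macrophage genes such as Csf1r and Tyrobp, with P2ry12 and Aif1 absent or near the floor. Cx3cr1 was also low, at 3 to 43 counts, and Tmem119 and C1qa averaged at most 8.56 and 2.78 CPM in any group. Trem2 averaged 21.5 CPM in ControlA, 2.98 with nApoE4, 0.722 in ControlB and 0.521 with nApoE3. Neuron markers summed to at most 0.582 CPM and fibroblast markers to at most 0.390 in any sample. The sum of 4 astrocyte markers was 1.204 to 1.39 CPM in ControlA, 6.02 to 7.03 with nApoE4, 1.05 to 1.22 in ControlB and 4.37 to 4.53 with nApoE3, came mostly from the glutamate transporter Slc1a2, and the defining Gfap and Aqp4 had at most 4 counts. The sum of 4 oligodendrocyte markers, with Mog and Mobp at 0 counts, was 11.3 to 14.3 CPM in ControlA, 9.28 to 11.8 with nApoE4, 24.0 to 24.6 in ControlB and 22.1 to 25.4 with nApoE3. The sum of 4 endothelial markers, with Cldn5 at 0 counts and most of it from Kdr, was 150.1 to 177, 62.5 to 71.7, 63.97 to 66.3 and 42.8 to 47.9 CPM in the same order. The part of these shifts in the results below was not tested. In bulk RNA of this kind, fewer cells in a phase of the cycle and less RNA per cell cannot be told apart. The labels do not say whether replicates were separate cultures, and the study describes its transcriptome measurements as independent without saying what was repeated, so p-values measure the spread between these samples, part of which may be technical.

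Most of the 10 genes were lower after treatment with either fragment, and Cdk6 and Cdkn1a were higher. With nApoE4, 9 genes passed the test, 7 lower and 2 higher than in ControlA, beside 57.2% of all 14240 genes tested, 28.6% lower and 28.6% higher (edgeR's quasi-likelihood F test, Benjamini-Hochberg adjusted p under 0.05). With nApoE3, 9 passed, 7 lower and 2 higher than in ControlB, beside 67.7% of 14817 genes, 34.6% lower and 33.1% higher. Ccnd1, Ccnd3, Ccne1, Ccne2, Cdkn1b and Cdkn2c were lower with both fragments, beside 22.3% of the 13750 genes tested in both experiments, and Cdk6 and Cdkn1a were higher with both, beside 21.3%. No member passed in opposite directions, beside 3.65%. The remaining genes each passed the test in one experiment, Cdk4 with nApoE4 and Ccnd2 with nApoE3. Past a fold change of 2, the counts were 4 lower and 1 higher with nApoE4 (7.46% and 10.2% of all genes, 17.7% together) and 5 lower and 1 higher with nApoE3 (6.57% and 9.6%, 16.2% together). The median log2 fold change of the members was −0.87 with nApoE4 and −0.91 with nApoE3, beside 0.0013 and −0.0026 over all genes tested. For 9 of the 10, treated and control samples did not overlap in each experiment, which also held for 63.6% of all genes with nApoE4 and 77.6% with nApoE3.

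**Figure D1:**
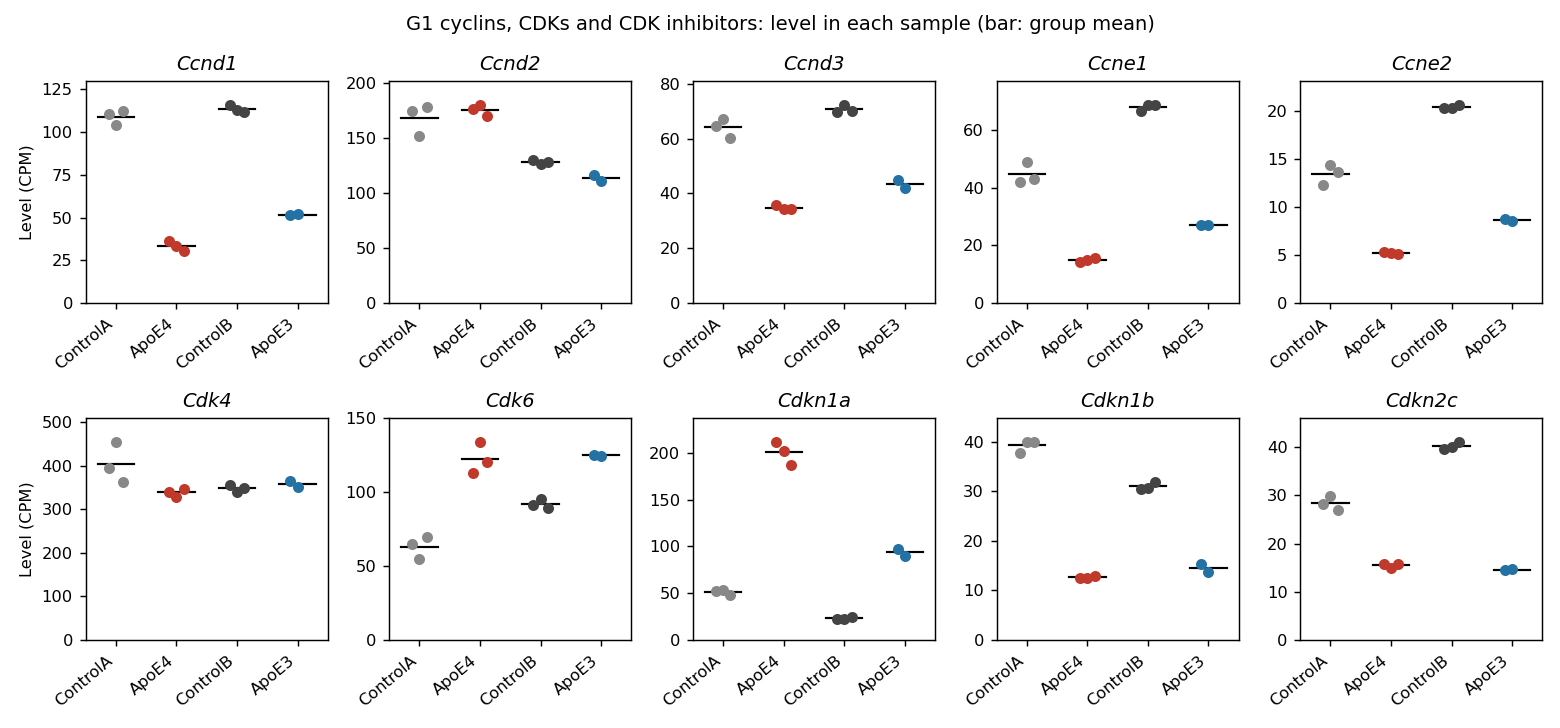
Level of each gene in each of the 11 samples, in CPM on axes that start at 0, with a bar at the group mean. Ccnd1, Ccnd3, Ccne1, Ccne2, Cdkn1b and Cdkn2c sit lower in all treated samples than in their own controls, while Cdkn1a reaches 187 to 212 CPM with nApoE4 from 47.8 to 53.5 in ControlA.

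Promoter sequence was matched by symbol for 7 of the 10 members, which have 10 start sites, in the RefSeq annotation of GRCm38.p6. The 250 bases before a start site are printed for the inhibitor that rose, for the cyclin that fell most over both fragments, for the inhibitor Cdkn1b and for Cdk4, the kinase that moved least, so that members with unlike responses can be read side by side. Capitals mark a GC box (GGGCGG, the letters bound by Sp1), an E-box (CACGTG, bound by Myc with Max) or a p53 response element, each on either strand, and each sequence runs 5′ to 3′ on the strand of its gene. The windows lie at chr17:29090729-29090978 and chr17:29093519-29093768 on the plus strand for the 2 start sites of Cdkn1a, at chr7:38107491-38107740 on the minus strand for Ccne1, at chr6:134920151-134920400 on the plus strand for Cdkn1b and at chr10:127063285-127063534 on the plus strand for Cdk4.
Cdkn1a start site 1: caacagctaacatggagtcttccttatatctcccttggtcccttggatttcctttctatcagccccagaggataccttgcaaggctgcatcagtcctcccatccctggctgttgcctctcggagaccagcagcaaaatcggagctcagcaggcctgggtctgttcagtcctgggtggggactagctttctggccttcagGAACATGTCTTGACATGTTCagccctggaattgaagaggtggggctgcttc
Cdkn1a start site 2: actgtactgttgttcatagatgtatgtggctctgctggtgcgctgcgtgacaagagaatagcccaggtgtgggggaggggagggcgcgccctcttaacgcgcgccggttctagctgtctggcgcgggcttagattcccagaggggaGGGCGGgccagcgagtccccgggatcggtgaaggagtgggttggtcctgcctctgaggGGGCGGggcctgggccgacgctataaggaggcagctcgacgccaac
Ccne1: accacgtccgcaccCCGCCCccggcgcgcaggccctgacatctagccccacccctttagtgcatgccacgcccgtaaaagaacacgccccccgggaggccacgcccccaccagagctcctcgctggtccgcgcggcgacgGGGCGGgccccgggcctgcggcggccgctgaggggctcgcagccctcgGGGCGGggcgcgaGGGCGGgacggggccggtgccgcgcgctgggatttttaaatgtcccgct
Cdkn1b: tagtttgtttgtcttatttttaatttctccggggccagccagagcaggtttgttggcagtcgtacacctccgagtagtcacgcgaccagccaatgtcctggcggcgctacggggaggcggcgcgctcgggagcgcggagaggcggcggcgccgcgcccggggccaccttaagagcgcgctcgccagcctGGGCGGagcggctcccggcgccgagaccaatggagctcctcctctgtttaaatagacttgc
Cdk4: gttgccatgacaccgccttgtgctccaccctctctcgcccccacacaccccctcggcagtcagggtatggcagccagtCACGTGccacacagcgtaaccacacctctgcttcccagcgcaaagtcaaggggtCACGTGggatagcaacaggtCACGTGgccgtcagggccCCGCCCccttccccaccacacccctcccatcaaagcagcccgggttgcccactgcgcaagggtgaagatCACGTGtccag

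The first start site of Cdkn1a holds a p53 response element, 2 adjoining copies of the 10-base consensus with at most 1 mismatch, that begins at position −51 (counted back from the start), and 0.0761% of all 32851 promoters hold such a match. The second start site of Cdkn1a holds GC boxes, as does the Ccne1 window, where they begin at −236, −110, −62 and −49. GC boxes were found in 7 of the 10 member promoters, of 6 genes, and in 32.7% of all promoters. Cdk4 has 4 E-boxes, which begin at −172, −118, −98 and −11, and Cdk6 has 1, while 6.02% of all promoters have any. CCAAT boxes, the letters bound by NF-Y, were found in 2 of the 10 member promoters (of Ccnd3 and Cdkn1b) and in 33.8% of all promoters. Motifs for E2F (TTTCCCGC, TTTCGCGC, TTTGCCGC or TTTGGCGC, in 1.86% of promoters), AP-1 (TGACTCA or TGAGTCA, 4.46%) and STAT factors (TTCNNNGAA, 7.02%) matched none of the 7 members with sequence, which says only that these letters are not in these windows. Ccnd1, Ccnd2 and Ccne2 had no promoter sequence and were not searched. The motifs were chosen with these sequences in view, and a match is a description of the letters and not of binding.

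Among the D-type cyclins, which take up growth signals and activate Cdk4 and Cdk6, Ccnd1 fell most and Ccnd2 held near its control level. Ccnd1 (chromosome 7, 144929931 to 144939831, minus strand, GRCm38.p6) was at 110.35, 104 and 112 CPM in ControlA and at 36.5, 33.4 and 30.4 with nApoE4. In the nApoE3 experiment it was at 116, 113 and 112 CPM in ControlB and at 51.6 and 52.0 after treatment. All treated samples lay well below their controls, and the control groups overlapped each other. The log2 fold change was −1.70 (approximate SE 0.0759), or 3.25-fold lower, with nApoE4 (edgeR, adjusted p = 6.98e-08). It was −1.14 (SE 0.0295), or 2.21-fold lower, with nApoE3 (edgeR, adjusted p = 5.65e-12). Oraov1 (LTO1), with 597 to 921 counts, overlaps 818 bases of Ccnd1, so reads there are uncertain without the strand setting.

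Ccnd3 (chromosome 17, 47505051 to 47599689, plus strand), the D-type cyclin best known from lymphoid cells, moved in the same direction and by less. Its levels were 64.7, 67.2 and 60.3 CPM in ControlA against 35.7, 34.2 and 34.3 with nApoE4. They were 69.9, 72.3 and 70.0 CPM in ControlB against 45.1 and 42.0 with nApoE3. Neither treated group overlapped its controls, and the fall was 1.84-fold (log2 −0.88, SE 0.0607, edgeR, adjusted p = 1.46e-06) and 1.63-fold (log2 −0.71, SE 0.0365, edgeR, adjusted p = 3.87e-09). The end of Ccnd3 overlaps 359 bases of Bysl, and the strand setting of the counting is not given in the sources used here, so reads there are uncertain.

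Ccnd2 (chromosome 6, 127125162 to 127152188, minus strand), which is often induced by growth factors in blood cells, was the D-type cyclin with the smallest response. In the nApoE4 experiment its level was 174, 152 and 178 CPM in ControlA and 176, 180.4 and 170.3 after treatment, so the groups overlapped. A long noncoding gene with 335 to 700 counts overlaps 2800 of its bases. The log2 value of 0.068 (SE 0.0731) did not pass the test (edgeR, adjusted p = 0.456), and its sign turned, to −0.024, when libraries were scaled by their totals alone, and to −0.0064 without ControlA replicate 2. In the nApoE3 experiment it was at 130.5, 127 and 129 CPM in ControlB and at 117 and 111 after treatment. These groups did not overlap, and Ccnd2 fell by 1.13-fold with nApoE3 (log2 −0.18, SE 0.0281, edgeR, adjusted p = 1.05e-04).

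The E-type cyclins, the partners of Cdk2 at entry into S phase, fell with both fragments. Ccne1 (chromosome 7, 38097984 to 38107490, minus strand), whose promoter with 4 GC boxes is printed above, was at 42.1, 48.8 and 43.1 CPM in ControlA and at 14.3, 14.9 and 15.6 with nApoE4. It was at 66.5, 68.6 and 68.6 CPM in ControlB and at 27.1 and 27.2 with nApoE3. Every treated sample lay below every control sample of either experiment. The fall was 2.98-fold with nApoE4 (log2 −1.58, SE 0.0751, edgeR, adjusted p = 1.07e-07) and 2.51-fold with nApoE3 (log2 −1.33, SE 0.0344, edgeR, adjusted p = 5.78e-12).

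Ccne2 (chromosome 4, 11190433 to 11204779, plus strand) followed the same course at lower counts. Its level was 12.3, 14.4 and 13.7 CPM in ControlA against 5.32, 5.22 and 5.17 with nApoE4, and 20.4, 20.3 and 20.7 in ControlB against 8.83 and 8.57 with nApoE3. No treated sample reached a control sample, and the fall was 2.56-fold with nApoE4 (log2 −1.36, SE 0.0892, edgeR, adjusted p = 9.98e-07) and 2.36-fold with nApoE3 (log2 −1.24, SE 0.0478, edgeR, adjusted p = 2.35e-10). Ints8, with 711 to 2799 counts, overlaps 5622 bases of Ccne2, which itself had 205 to 1437 counts. The long noncoding gene A630034I12Rik, with 391 to 1089 counts, overlaps 798 bases. Part of the reads of Ccne2 could therefore be assigned to either neighbour.

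The kinases differed from the cyclins and from each other. Cdk6 (chromosome 5, 3341004 to 3531008, plus strand), which pairs with cyclin D and is prominent in blood cell lineages, was at 64.6, 54.7 and 69.4 CPM in ControlA and at 113, 134 and 120.1 with nApoE4. It was at 90.9, 95.01 and 89.0 CPM in ControlB and at 125 and 124 with nApoE3. The treated groups lay above their controls and overlapped each other. Cdk6 rose 1.95-fold with nApoE4 (log2 0.97, SE 0.0975, edgeR, adjusted p = 2.17e-05) and 1.36-fold with nApoE3 (log2 0.44, SE 0.0303, edgeR, adjusted p = 5.99e-08).

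Cdk4 (chromosome 10, 127063535 to 127067288, plus strand), the other partner of cyclin D, is the gene whose promoter carries 4 E-boxes in the sequence above. Its level was 396, 455 and 363 CPM in ControlA against 340.1, 328 and 347 with nApoE4, and 355, 339.6 and 349.9 in ControlB against 364.8 and 350.0 with nApoE3. The nApoE4 samples lay below their controls by a small margin, and the nApoE3 samples overlapped theirs. The fall with nApoE4 was 1.19-fold (log2 −0.25, SE 0.0844, edgeR, adjusted p = 0.0279), and this call was lost without ControlA replicate 1 (adjusted p = 0.0579) or without ApoE4 replicate 1, 2 or 3 (0.0756, 0.0829 and 0.0656). With nApoE3 the log2 value was 0.031 (SE 0.0257, edgeR, adjusted p = 0.299), and with libraries scaled by their totals alone it was −0.10 and passed the test (edgeR, adjusted p = 0.00275).

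The CDK inhibitors split, with Cdkn1a up and Cdkn1b and Cdkn2c down. Cdkn1a (chromosome 17, 29090979 to 29100722, plus strand), the p53 target that binds cyclin-CDK complexes and the replication clamp PCNA, was at 52.6, 53.5 and 47.8 CPM in ControlA and at 212, 202 and 187 with nApoE4. It was at 22.8, 22.7 and 24.9 CPM in ControlB and at 97.0 and 90.2 with nApoE3. The 4 groups did not overlap at any point, and the nApoE4 group was the highest. The rise was 3.92-fold with nApoE4 (log2 1.97, SE 0.0723, edgeR, adjusted p = 1.83e-08) and 3.98-fold with nApoE3 (log2 1.99, SE 0.0445, edgeR, adjusted p = 1.50e-12).

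Cdkn1b (chromosome 6, 134920401 to 134925525, plus strand), the inhibitor that usually accumulates in resting cells, fell with both fragments. Its level was 37.8, 39.9 and 40.01 CPM in ControlA against 12.5, 12.6 and 12.9 with nApoE4. It was 30.5, 30.7 and 31.9 CPM in ControlB against 15.2 and 13.7 with nApoE3. The groups of each experiment were far apart, and the fall was 3.09-fold with nApoE4 (log2 −1.63, SE 0.0607, edgeR, adjusted p = 2.03e-08) and 2.15-fold with nApoE3 (log2 −1.10, SE 0.0504, edgeR, adjusted p = 1.15e-09).

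Cdkn2c (chromosome 4, 109660876 to 109666756, minus strand), the INK4 inhibitor of Cdk4 and Cdk6, fell by more with nApoE3 than with nApoE4. Its level was 28.2, 30.0 and 27.0 CPM in ControlA against 15.8, 14.9 and 15.7 with nApoE4, and 39.7, 40.1 and 41.2 in ControlB against 14.5 and 14.7 with nApoE3. The treated groups ended close together, from control groups that were apart. The fall was 1.83-fold with nApoE4 (log2 −0.87, SE 0.0662, edgeR, adjusted p = 2.90e-06) and 2.77-fold with nApoE3 (log2 −1.47, SE 0.0409, edgeR, adjusted p = 1.11e-11).

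**Figure D2:**
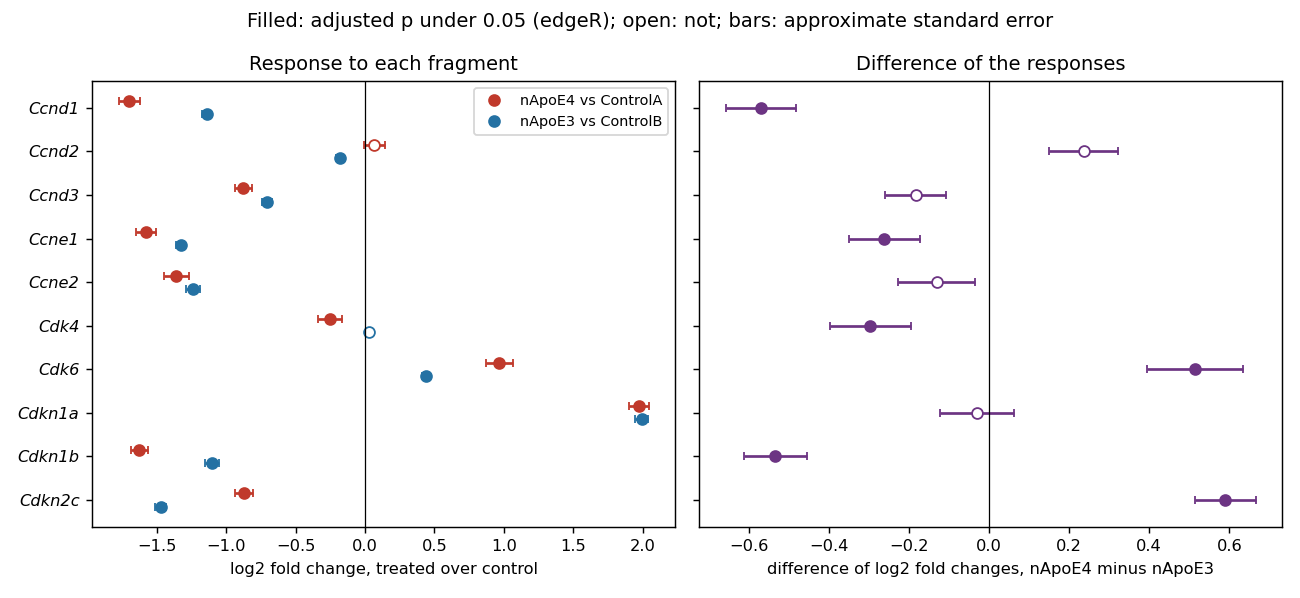
Left, log2 fold change of each member, treated over control, for nApoE4 (red) and nApoE3 (blue). Right, the difference of these responses, nApoE4 minus nApoE3. Bars are approximate standard errors, and filled points passed edgeR's test. Cdkn1a lies at 1.97 and 1.99 on the left and at −0.030 on the right.

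Which member supplied the transcripts of each class was read from shares within a sample, with counts divided by the exon length of each gene (GENCODE M21), so that the scaling between libraries has no part in it. Ccnd1 made up 47.9% ± 0.349 (SD, n = 3) of D-type cyclin transcripts in ControlA and 23.8% ± 1.40 (n = 3) with nApoE4, while Ccnd2 went from 37.0% ± 1.61 to 62.8% ± 1.33. With nApoE3, Ccnd1 went from 52.6% ± 0.363 (n = 3) to 39.2% ± 1.03 (n = 2), and Ccnd2 from 29.8% ± 0.324 to 43.2% ± 0.530. By this length, the leading D-type cyclin was Ccnd1 in all 6 controls and Ccnd2 in all 5 treated samples. The lead of Ccnd1 in the controls depended on dividing by length. Not divided, Ccnd2 was the higher there too, at 168.2 against 108.9 CPM in ControlA and 128.7 against 113.6 in ControlB. The share changes of Ccnd1 and Ccnd2 kept their direction with every length used. Ccnd3 went from 15.2% ± 1.44 to 13.3% ± 0.408 with nApoE4, and its nApoE3 groups, at 17.6% ± 0.433 and 17.7% ± 0.499, overlapped. The summed D-type level went from 48.3 ± 2.06 CPM per kilobase to 29.7 ± 1.11 with nApoE4 and from 45.9 ± 0.550 to 28.1 ± 0.582 with nApoE3, without a test of the sum.

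Among the 3 inhibitors that are members, Cdkn1a made up most of the transcripts after treatment. Other CDK inhibitors are not in these shares. One of them, Cdkn2a, was at 90.1 CPM in ControlA, 92.7 with nApoE4, 41.2 in ControlB and 41.3 with nApoE3. In the controls Cdkn1a was at 51.3 and 23.5 CPM. The share of Cdkn1a among the 3 went from 42.9% ± 1.21 (SD, n = 3) to 86.8% ± 0.854 (n = 3) with nApoE4, and from 23.2% ± 0.571 (n = 3) to 75.3% ± 0.530 (n = 2) with nApoE3. Cdkn2c, the largest share in ControlB at 52.8% ± 0.495, held 15.6% ± 0.795 with nApoE3, and it went from 31.4% ± 0.390 to 8.89% ± 0.566 with nApoE4. Cdkn1b went from 25.6% ± 1.36 to 4.29% ± 0.305 and from 23.98% ± 0.0788 to 9.09% ± 0.265. The summed level of these 3 inhibitors was 33.6 ± 1.33 CPM per kilobase in ControlA and 64.95 ± 3.49 with nApoE4, and 28.4 ± 0.795 in ControlB and 34.96 ± 1.54 with nApoE3. The treated sum lay above the control sum in both experiments, although 2 of the 3 inhibitors were lower, and by more in the nApoE4 experiment.

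Cdk6 remained the minor kinase, at 3.54% ± 0.772 (SD, n = 3) of the Cdk4 and Cdk6 transcripts in ControlA, 7.76% ± 0.800 (n = 3) with nApoE4, 5.77% ± 0.290 (n = 3) in ControlB and 7.51% ± 0.163 (n = 2) with nApoE3. The share of Ccne2 among E-type cyclins moved little, from 18.7% ± 0.690 to 21.1% ± 0.980 with nApoE4 and from 18.7% ± 0.247 to 19.6% ± 0.363 with nApoE3. For every share named, the exact two-sided permutation p was 0.1 with nApoE4 and, but for Ccnd3, 0.2 with nApoE3. These are the smallest values that this test, which doubles the p of a single side, can give with 3 against 3 and 3 against 2 samples. No share could therefore pass 0.05. The nApoE3 share of Ccnd3 gave an exact permutation p of 0.8.

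**Figure D3:**
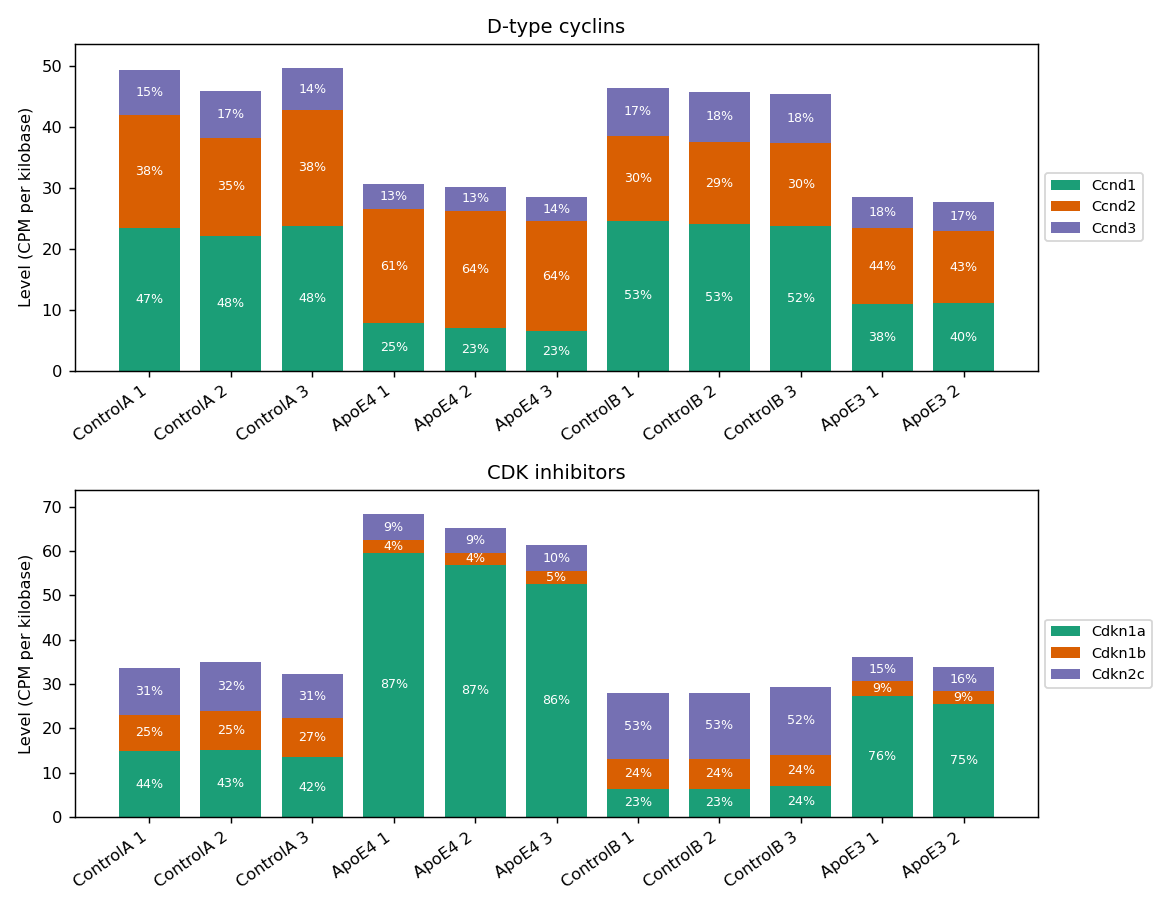
Level in CPM per kilobase of the D-type cyclins (top) and the CDK inhibitors among the members (bottom), stacked by gene for each sample, with each gene's share printed in its bar. Ccnd1 shrinks and Ccnd2 becomes the largest D-type band in treated samples, and Cdkn1a fills 74.97 to 87.4% of the inhibitor bars there.

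Responses to the fragments were compared by a test of their difference over all 11 samples, an interaction term with 4 group means. Relative to its own controls, Ccnd1 was lower by a further 0.57 on the log2 scale with nApoE4 than with nApoE3 (SE 0.0877, edgeR, adjusted p = 3.58e-04), and Cdkn1b by a further 0.53 (SE 0.0784, edgeR, adjusted p = 2.53e-04). The rise of Cdk6 was larger with nApoE4 by 0.51 (SE 0.119, edgeR, adjusted p = 0.00589), and the fall of Cdkn2c was smaller by 0.59 (SE 0.0763, edgeR, adjusted p = 9.09e-05). In all, 2 members had a higher and 4 a lower response to nApoE4, beside 14.4% and 13.9% of 15287 genes, 28.3% together. None of these differences was above a fold of 2, beside 5.93% of all genes, 2.58% higher and 3.35% lower. Among the 6, Ccne1 (difference −0.26, SE 0.0879, edgeR, adjusted p = 0.0418) and Cdk4 (−0.30, SE 0.101, edgeR, adjusted p = 0.0449) were close to the threshold. The call of Ccne1 was lost without ApoE4 replicate 1 or 2 or any replicate of ControlB or ApoE3, and that of Cdk4 without ControlA replicate 1 or any replicate of the other 3 groups, which left 2 lower members in those fits that lost both.

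Cdkn1a showed no detectable difference of response, at −0.030 (SE 0.0932, edgeR, adjusted p = 0.852), with a sign that turned under some settings. The differences for Ccnd2 (0.24, SE 0.0860, edgeR, adjusted p = 0.0577), Ccnd3 (−0.18, SE 0.0750, adjusted p = 0.0886) and Ccne2 (−0.13, SE 0.0968, adjusted p = 0.357) did not pass either, which does not show that the responses were alike. The difference of Ccnd2 passed with DESeq2 (adjusted p = 0.0355) and, in edgeR, with all genes of at least 1 count (adjusted p = 0.0296), without ControlA replicate 2 (0.0283) and without ControlA replicate 3 (0.0197), and that of Ccnd3 without ControlA replicate 3 (edgeR, adjusted p = 0.0259). Each fragment was tested in its own experiment, so in these differences fragment and experiment cannot be told apart.

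The untreated cells of the experiments already differed in these genes. In ControlB, 4 members were higher and 4 lower than in ControlA, beside 69.3% of 14249 genes, 34.4% higher and 34.9% lower, and 9 of the 10 did not overlap, beside 74.1% of all genes. Ccne1 and Ccne2 were 1.503-fold and 1.502-fold higher in ControlB (log2 0.59, SE 0.0606 and 0.0634, edgeR, adjusted p = 5.54e-05 and 7.29e-05). Cdk6 (log2 0.53, SE 0.0834, edgeR, adjusted p = 6.41e-04) and Cdkn2c (log2 0.49, SE 0.0518, edgeR, adjusted p = 6.54e-05) were also higher there. Cdkn1a was 2.21-fold lower in ControlB (log2 −1.14, SE 0.0641, edgeR, adjusted p = 2.45e-06), the largest baseline difference among the members. It was the only member past a fold of 2 there, beside 17.9% of all genes, 5.4% higher and 12.5% lower. Ccnd2 (log2 −0.40, edgeR, adjusted p = 7.40e-04) and Cdkn1b (log2 −0.35, edgeR, adjusted p = 1.93e-04) were lower by less, and Ccnd1 did not pass the test (log2 0.045, SE 0.0461, edgeR, adjusted p = 0.408). The call of Cdk4, lower in ControlB by 0.23 on the log2 scale (SE 0.0790, edgeR, adjusted p = 0.0281), was lost without ControlA replicate 1 or any replicate of ControlB, and Ccnd3 (0.13, adjusted p = 0.0607) passed without ControlA replicate 2 (edgeR, adjusted p = 0.00370). Experiment, culture and any batch cannot be told apart in this comparison.

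Across the 4 groups, levels of Ccnd3, Ccne1 and Ccne2 ran from ControlB through ControlA and nApoE3 to nApoE4 with no overlap between neighbours. Ccnd1 had the same order, with its control groups overlapping. Cdkn1a ran from nApoE4 through nApoE3 and ControlA to ControlB, and Cdkn1b from ControlA through ControlB and nApoE3 to nApoE4, again with no overlap. Cdkn2c ran from ControlB through ControlA and nApoE4 to nApoE3 with no overlap. The 2 highest groups overlapped for Ccnd2 (nApoE4 and ControlA, above ControlB and nApoE3) and for Cdk6 (nApoE3 and nApoE4, above ControlB and ControlA). For Cdk4 every neighbouring pair of groups overlapped.

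Between genes, the level per kilobase of exon was highest for Cdk4 in every group, at 125 CPM per kilobase in ControlA, 104 with nApoE4, 107 in ControlB and 110.0 with nApoE3. Cdkn1a moved from place 5 to place 2 in this order with nApoE4 and from 8 to 2 with nApoE3, and Cdk6 from 9 to 4 and from 9 to 6. Cdkn1a was at 14.4 CPM per kilobase in ControlA, below Ccnd1, Ccnd2 and Ccne1 (23.1, 17.9 and 16.8), and at 56.4 with nApoE4, above every member but Cdk4. In ControlB it was at 6.61 CPM per kilobase and overlapped Cdkn1b and Cdk6 (6.82 and 6.55), and with nApoE3 it was at 26.3, again next to Cdk4. Places and overlaps between genes depend on the exon length used, and other lengths were not tried for this order. Cdkn1a has 3553 bases as a union of exons and 2080 in its longest transcript, while Cdkn1b has 4552 by either. Ccne2 had the lowest level in every group, at 3.85, 1.498, 5.85 and 2.49 CPM per kilobase in the same order of groups, and it overlapped Cdk6 in ControlA.

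The rest of the pathway was read from 8 lists of 83 genes that hold no member. Their counts stand beside the shares of all genes tested. These were 28.6% lower and 28.6% higher with nApoE4, and 34.6% lower and 33.1% higher with nApoE3. Of the 16 E2F target genes of G1/S, 15 fell with nApoE4 and 16 with nApoE3, and none rose (edgeR, adjusted p under 0.05), with a median log2 fold change of −0.80 and −0.65 beside 0.0013 and −0.0026 over all genes. Cdc6, which loads the replicative helicase, fell with log2 fold changes of −1.85 (SE 0.0670) and −1.80 (SE 0.0356). Uhrf1, which maintains DNA methylation, fell likewise (−1.04, SE 0.0695, and −1.43, SE 0.0267), as did Chaf1a, a chromatin assembly factor (−0.93, SE 0.0581, and −1.11, SE 0.0260). In the controls, 13 of the 16 were higher in ControlB than in ControlA and 1 was lower, beside 34.4% and 34.9% of all genes. Among 12 tested pocket proteins and E2F factors, 9 fell and 0 rose with nApoE4 and 10 fell and 2 rose with nApoE3, with medians of −0.58 and −0.64. The activator E2f1 fell (log2 −1.35, SE 0.0608, and −0.89, SE 0.0357), and so did E2f2 (−1.37, SE 0.0670, and −1.89, SE 0.0433) and their partner Tfdp2 (−0.98, SE 0.0782, and −1.69, SE 0.0581). E2f7 had at most 4 counts in any sample and was not tested.

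The list for the S, G2 and M phases holds 7 cyclins and kinases and the proliferation genes Cdc20, Mki67 and Top2a. Of these 10 genes, 7 fell and 1 rose with nApoE4 (median −0.23), beside 28.6% lower and 28.6% higher over all genes. With nApoE3, 4 fell and 5 rose (median 0.023), beside 34.6% and 33.1%. The gene that rose with nApoE4 was the DNA topoisomerase Top2a, named after its value was seen, and it rose with both (log2 0.19, SE 0.0665, and 0.29, SE 0.0188). Lower with both were Ccnf (log2 −0.49, SE 0.0654, and −0.35, SE 0.0241), the S phase cyclin Ccna2 (−0.37, SE 0.0574, and −0.18, SE 0.0226) and the mitotic cyclin Ccnb2 (−0.22, SE 0.0603, and −0.31, SE 0.0312). Its fellow mitotic cyclin Ccnb1, named after its values were seen, did not pass with nApoE4 (log2 −0.0033, SE 0.0675). With nApoE3, Ccnb1 rose (0.30, SE 0.0222). Cdk1, the mitotic kinase, was lower with nApoE4 (−0.24, SE 0.0829) and higher with nApoE3 (0.21, SE 0.0284), as were Aurka (−0.23, SE 0.0762, and 0.18, SE 0.0219) and Cdc20 (−0.21, SE 0.0647, and 0.076, SE 0.0283), each past edgeR's test in both.

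Upstream of the members, 5 of 7 regulators rose and 2 fell with each fragment, with medians of 0.59 and 0.51. Over all genes, 28.6% were higher and 28.6% lower with nApoE4, and 33.1% and 34.6% with nApoE3. Myc, a transcription factor that drives growth and binds E-boxes, had 27 to 38 counts in ControlA and 346 to 391 with nApoE4, and 22 to 28 in ControlB and 260 to 275 with nApoE3. These groups did not overlap, and Myc rose by 3.63 (SE 0.145) and 3.51 (SE 0.179) on the log2 scale. Mdm2, the ligase that degrades p53 and is itself a p53 target, rose by 1.59 (SE 0.0569) and 2.08 (SE 0.0334), and Foxo3, a factor that activates Cdkn1b, fell (−1.51, SE 0.0853, and −0.76, SE 0.0423). Among p53 target genes other than Cdkn1a, 7 of 15 tested rose and 2 fell with nApoE4, beside 28.6% and 28.6% of all genes. With nApoE3, 7 of 14 rose and 5 fell, beside 33.1% and 34.6% of all genes, so the falls were near the share of all genes. The medians were 0.082 and 0.060. Plk2 rose by 2.54 (SE 0.0644) and 3.57 (SE 0.0341), the stress gene Gadd45a by 3.58 (SE 0.0864) and 1.85 (SE 0.0802), and the antiproliferative gene Btg2 by 1.58 (SE 0.0843) and 2.75 (SE 0.0693), whereas Bbc3, which encodes the death protein PUMA, was higher with nApoE4 (0.18, SE 0.0679) and lower with nApoE3 (−0.38, SE 0.0586). Sesn1, a stress-induced p53 target named after its values were seen, fell with both fragments (−1.43, SE 0.0596, and −2.65, SE 0.0395). The p53 list thus held genes that rose several-fold beside Sesn1 and others that fell or did not pass.

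CDK2 and its activators gave no common direction, with 2 of 6 higher and 2 lower with nApoE4 (median 0.057) and 4 higher and 2 lower with nApoE3 (median 0.15). These counts, and those of the lists that follow, stand beside 28.6% of all genes higher and 28.6% lower with nApoE4. With nApoE3 the shares were 33.1% and 34.6%. Cdk2, the partner of cyclin E, fell (log2 −0.83, SE 0.0618, and −0.80, SE 0.0336), as did the phosphatase Cdc25a (−0.50, SE 0.0542, and −0.093, SE 0.0283), while Mnat1, of the CDK-activating kinase, rose by 0.53 (SE 0.0836) and 0.23 (SE 0.0385). Of the other CDK inhibitors, Cdkn2b had 0 counts in every sample, and of the 3 tested 2 fell with nApoE4 while 1 rose and 1 fell with nApoE3 (medians −0.58 and −0.0050, the latter the same with Cdkn1c at its bound). Cdkn2d, the INK4 inhibitor p19, was lower with nApoE4 (−0.58, SE 0.123) and higher with nApoE3 (0.35, SE 0.0583). Cdkn2a, named for its level, passed with neither fragment (log2 0.045, SE 0.0845, and −0.0050, SE 0.0364). Cdkn1c (p57) had 40, 49 and 56 counts in ControlA and 21, 21 and 24 with nApoE4 (log2 −1.01, SE 0.214), and 12, 13 and 8 in ControlB and 3 and 0 with nApoE3, which is at least 3.32-fold lower against a floor of 3 counts per library. Among 10 genes that turn over cyclins and inhibitors, 3 of 9 tested rose and 2 fell with nApoE4 and 6 of 10 rose and 3 fell with nApoE3, with medians of −0.010 and 0.099. Skp2, among the 3 that fell and named after its counts were seen, rested largely on ControlB replicate 1. It had 166, 17 and 32 counts in ControlB and 17 and 16 with nApoE3. Cul1, the scaffold of the SCF ligases, rose by 1.36 (SE 0.0584) and 1.15 (SE 0.0214), Fbxw7, which marks cyclin E for degradation, by 0.59 (SE 0.0968) and 0.32 (SE 0.0560), and Fbxo31, which marks cyclin D1, fell (−1.44, SE 0.0581, and −1.01, SE 0.0347).

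**Figure D4:**
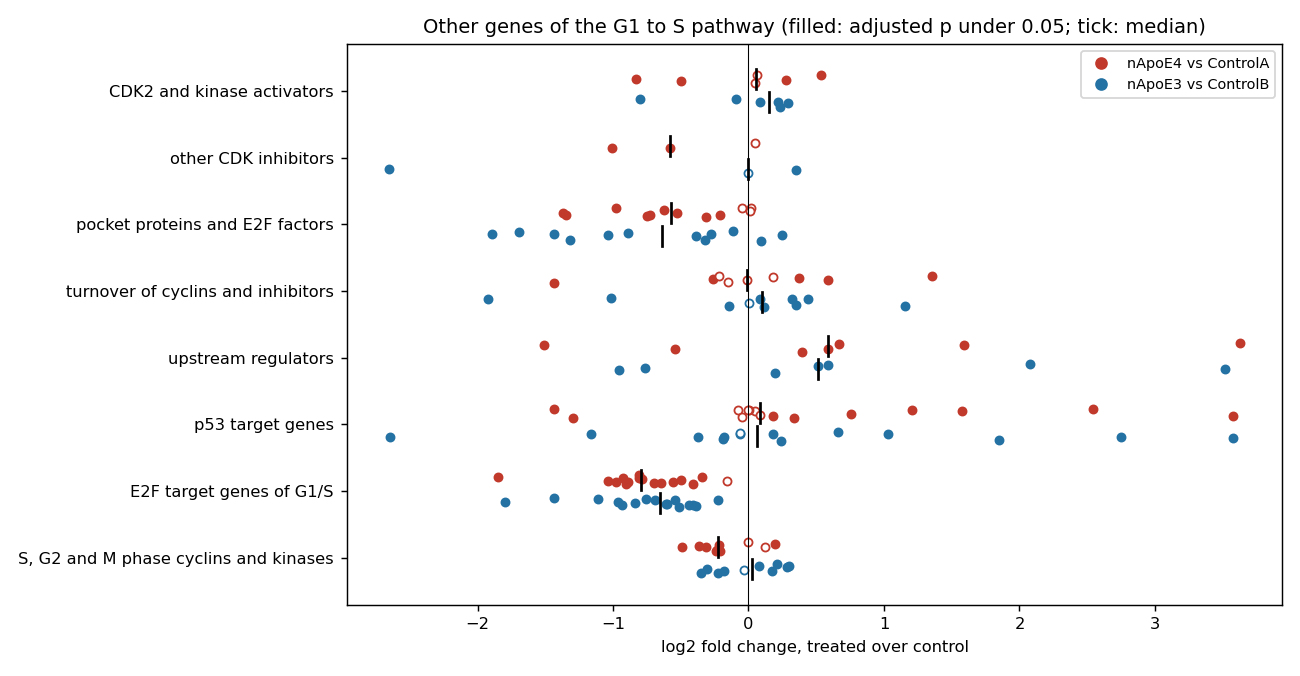
Log2 fold change, treated over control, of each tested gene in 8 lists of the G1 to S pathway, for nApoE4 (red) and nApoE3 (blue), with a tick at each list's median. Filled points passed edgeR's test. All E2F target genes lie below 0 with both fragments, and the leftmost nApoE3 point among the other CDK inhibitors is Cdkn1c, whose nApoE3 samples had at most 3 counts.

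Genes whose levels followed a member most closely over the 11 samples were sought among 8840 genes with a mean of at least 10 CPM, as Pearson's r of log2 CPM. The points share 4 groups and 2 experiments, so r is given as a description. For Cdkn1a, which rose most over both fragments, they were Atp13a4, Lrrc25 and Trex1, each with an r of 0.997. Trex1, a DNA exonuclease, was at 29.7 CPM in ControlA, 145 with nApoE4, 11.01 in ControlB and 68.5 with nApoE3. For Ccne1, which fell most, the closest were its fellow E-type cyclin Ccne2 (r = 0.998), the mismatch repair gene Msh6 (r = 0.998) and Pianp (r = 0.996). Msh6 was at 129 CPM in ControlA, 50.5 with nApoE4, 187 in ControlB and 85.0 with nApoE3, in the same order of groups as Ccne1.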

How the data were processed

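RNA of 11 BV2 samples was sequenced, and the authors trimmed reads with Trim Galore 0.5.0, assessed them with FastQC 0.11.8, mapped them to GRCm38.p6 with HISAT2 2.1.0 and counted them on genes with HTSeq 0.11.0, per the submitters' processing notes. The deposited values are raw counts of reads per gene, without normalization. The annotation release, strand setting and overlap mode are not given in the sources used here, and they decide where reads of overlapping genes go. Between 76.0 and 77.7% of tallied reads, unaligned reads included, were counted on genes. The tallies of uncounted reads were kept out of library sizes and tests.

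Groups and replicate numbers came from the sample titles. Counts were analysed in R 4.3.3 with edgeR 4.0.16 (filterByExpr, TMM, quasi-likelihood F test, Benjamini-Hochberg adjustment over all genes tested, adjusted p under 0.05). Approximate standard errors were derived as |log2 fold change| over the root of the F statistic. Levels are CPM with TMM factors of all 11 samples. A floor of 3 counts was 0.0430 to 0.0755 CPM, and depth and floor cover counting error only. Exon lengths were the union of exons in GENCODE M21, and positions and promoters came from RefSeq for GRCm38.p6, the build of the counts. Shares were compared with exact two-sided permutation tests.

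The members, lists and tests were chosen with earlier results of these data known. All members are named. From each list up to 3 genes are named, those past the test with both fragments with the largest mean size of change, and any past it in opposite directions. Genes most like the members that rose and fell most are named by correlation. Samples with the same replicate number did not deviate together (correlations of −0.338 to 0.0150 between groups), and no block was used in the main fits. With so few samples per group this does not show that they were unpaired. Alternatives were DESeq2 1.42.0, its size factors, library totals, other filters on low counts, all samples in 1 fit, a replicate block, other gene lengths, a fold threshold and leaving out each replicate. The scripts were tested on simulated data. qPCR, protein and imaging data of the study were not analysed here.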

Additional observations from a re-analysis of the deposited data

Results flagged for a closer look

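In 26 of the genes named, Ccnb1 not counted, the response to nApoE4 differed from that to nApoE3. The test was of the difference itself, an interaction over 11 samples in edgeR (adjusted p from 1.87e-07 for Sesn1 to 0.0449 for Cdk4). Over all 15287 genes tested, 28.3% passed this test. Cdkn2d, Bbc3, Cdk1, Aurka and Cdc20 were named because their responses had opposite directions, and Sesn1 after its values were seen. Their passing was thus largely set by the choice, and the count is a description only. Fragment and experiment cannot be told apart in any of them, and all values are log2 responses to nApoE4 minus nApoE3. Among the members the differences were −0.57 for Ccnd1, −0.26 for Ccne1, −0.30 for Cdk4, 0.51 for Cdk6, −0.53 for Cdkn1b and 0.59 for Cdkn2c. Of the other kinase genes and inhibitors, the value was 0.29 for Mnat1, −0.42 for Cdc25a and −0.94 for Cdkn2d, which fell with nApoE4 and rose with nApoE3. For the E2F factors it was 0.51 for E2f2, 0.70 for Tfdp2 and −0.47 for E2f1, so that the fall of E2f1 was the larger with nApoE4 and that of the other two the larger with nApoE3. Among regulators of turnover and upstream factors it was 0.19 for Cul1, −0.44 for Fbxo31, −0.50 for Mdm2 and −0.76 for Foxo3. Among these 26, the widest differences were those of the p53 target genes Gadd45a (1.72), Sesn1 (1.21), Btg2 (−1.18) and Plk2 (−1.04). Bbc3, also on the p53 list, differed by 0.55. Cdkn1c, near the floor with nApoE3, had a difference of 1.61 that did not pass (edgeR, adjusted p = 0.112). The E2F target Uhrf1 differed by 0.38. Among genes of later phases, Ccna2 differed by −0.20, Cdk1 by −0.46, Aurka by −0.42 and Cdc20 by −0.30, and the last 3 moved in opposite directions with the fragments. Ccnb1, left out of the 26 and named after its values were seen, differed by −0.31 (edgeR, adjusted p = 0.00755).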

How the results depend on the processing

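Of 550 alternative values for the log2 changes of the members, 504 kept their direction and side of the threshold, 31 lost the call, 7 gained one and 8 turned sign, and of 348 alternative counts and shares, 325 stayed within 1.5 times or kept their direction. Requiring a fold change above 2 left 1 higher and 4 lower members with nApoE4, 1 higher with nApoE3, 0 and 0 in the difference of responses, and 0 higher and 1 lower between the controls. Testing every gene with at least 1 count left 2 members lower in the difference of responses. With the replicate number as a block, the difference of responses called 1 member higher and 2 lower, and 11 higher and 11 lower among the 83 pathway genes against 17 and 19 without it, and the calls of Cdk4 with nApoE4 (adjusted p = 0.0836) and of Ccne1, Cdk4 and Cdk6 in the difference (edgeR, adjusted p = 0.128, 0.176 and 0.0553) were lost. Samples that share a number did not deviate together. That check cannot show that they were unpaired, since deviations from means of so few samples cancel within a group.

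Leaving out each replicate in turn gave 2 to 5 members lower and 2 to 3 higher in the difference of responses. The fold threshold apart, Cdkn2c, Cdkn1b and Ccnd1 kept their calls there under the other 17 alternatives, and the 6 members lower and 2 higher with both fragments kept theirs under every other alternative. That threshold ended all calls in the difference, and those of Cdk6 and Ccnd3 with both fragments and of Cdkn2c with nApoE4. The change in the share of Ccnd3 with nApoE3 was 0.0926 points and ranged from −0.260 to 0.445 without a replicate, was −1.81 with counts not divided by length and was −0.404 with the longest transcript, where only the length used differs. Signs also turned for Ccnd2 with nApoE4 (−0.024 with library totals and −0.0064 to 0.11 without a replicate, the lowest without ControlA replicate 2), for Cdk4 with nApoE3 (−0.10 with library totals) and for the difference of Cdkn1a, which was 0.024 with library totals, 0.0057 with genes of at least 1 count, 0.0022 without ControlA replicate 2, 0.019 without ApoE4 replicate 3 and −0.083 to 0.024 over all replicates left out, the ends without ApoE3 replicate 2 and 1. Scaling by library totals moved the median of all genes by −0.090 with nApoE4 and −0.13 with nApoE3, and the cause of the other shifts was not tested. Depth limited the value of Cdkn1c, which had at most 56 counts.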
